A study of Homo sapiens with 3 samples.

Results

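TBCD and the other tubulin folding cofactors, TBCA, TBCB, TBCC and TBCE, were examined in PAR-CLIP data for MATR3. The 5 genes were taken by name from the deposited cluster tables, in which they held 828 of 388807 clusters (691 in TBCD, 105 in TBCA, 29 in TBCE, 2 in TBCB and 1 in TBCC). They were selected on measured values: TBCD stood among the genes with the most reads in these libraries, and the other 4 were taken as its partners. Read levels are therefore given as a description, with no test.

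The nuclear RNA-binding protein MATR3 (matrin 3) was immunoprecipitated with an antibody from untreated, wild-type cells of the established line HEK293, which derives from human embryonic kidney. PAR-CLIP crosslinks protein to photoactivatable uridine analogues in RNA, and crosslinked positions are read as T-to-C changes. The 3 libraries were labelled as biological replicates of 1 group, and no control library was among those analysed here. The tables held 133088, 131679 and 124040 clusters (stretches of overlapping reads with T-to-C changes), and 1448303, 1328093 and 1358924 reads in clusters annotated to genes. No cluster had fewer than 4 reads or fewer than 2 conversion locations, so weaker sites were not seen, and the depth of the whole libraries is unknown. RNA levels were not analysed here, and a gene with more nascent RNA and a gene with more MATR3 on each RNA cannot be told apart.

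The cofactors fold tubulin, the subunit of microtubules. New tubulin chains pass from the ribosome through the co-chaperone prefoldin and the cytosolic chaperonin CCT to the cofactors. TBCA receives beta tubulin and TBCB receives alpha tubulin, TBCD and TBCE then hold the beta and alpha chains, and TBCC joins them in a complex in which the small GTPase ARL2 also acts and from which the assembled heterodimer is released. MATR3 is known for binding pyrimidine-rich sequence within introns, and a motif written ATCTT in DNA letters has been described for it.

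The sites of TBCD that held clusters of all 3 replicates are shown first, because they recurred in every library when clusters were chained. A site is a stretch formed by chaining clusters of any replicate that overlapped by at least 1 nt on 1 strand. Coordinates are on hg38, 1-based, and intron numbers follow the MANE Select transcript in GENCODE release 44. Capitals mark the bases that clusters of every replicate present at the site covered, and a sequence with no capitals had no such base.
TBCD intron 14, chr17:82882101-82882186, plus strand: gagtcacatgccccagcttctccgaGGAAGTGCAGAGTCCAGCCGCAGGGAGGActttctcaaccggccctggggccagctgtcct
TBCD intron 8, chr17:82799463-82799579, plus strand: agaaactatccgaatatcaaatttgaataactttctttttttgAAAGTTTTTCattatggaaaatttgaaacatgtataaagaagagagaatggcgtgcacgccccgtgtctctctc
TBCD intron 35, chr17:82937695-82937812, plus strand: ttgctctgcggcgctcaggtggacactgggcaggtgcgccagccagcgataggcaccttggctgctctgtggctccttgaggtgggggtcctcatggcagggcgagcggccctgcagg
TBCD intron 3, chr17:82765414-82765585, plus strand: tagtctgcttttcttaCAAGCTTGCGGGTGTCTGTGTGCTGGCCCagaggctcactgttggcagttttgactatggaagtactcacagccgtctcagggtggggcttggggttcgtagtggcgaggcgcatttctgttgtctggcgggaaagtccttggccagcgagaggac
TBCD intron 7, chr17:82790241-82790384, plus strand: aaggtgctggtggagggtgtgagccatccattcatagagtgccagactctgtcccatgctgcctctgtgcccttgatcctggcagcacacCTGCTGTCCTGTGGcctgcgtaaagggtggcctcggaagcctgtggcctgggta
TBCD intron 17, chr17:82896965-82897038, plus strand: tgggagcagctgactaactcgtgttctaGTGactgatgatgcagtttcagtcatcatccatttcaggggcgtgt

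A pair of further TBCD sites is shown that held more reads in total than any of those 6 and were seen in 2 of the 3 replicates. Other TBCD sites did so too, and the pair was chosen from them after values were seen. Some of those not shown contain ATCTT, and neither of the pair does. One site of TBCA and one of TBCE, each in 2 replicates, stand for the genes in which no site held all 3.
TBCD intron 8, chr17:82800134-82800317, plus strand: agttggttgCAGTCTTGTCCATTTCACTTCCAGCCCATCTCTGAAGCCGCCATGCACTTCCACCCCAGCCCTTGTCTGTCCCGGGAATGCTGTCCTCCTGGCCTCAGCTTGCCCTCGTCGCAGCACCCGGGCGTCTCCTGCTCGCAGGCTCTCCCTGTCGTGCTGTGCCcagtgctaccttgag
TBCD intron 33, chr17:82932000-82932159, plus strand: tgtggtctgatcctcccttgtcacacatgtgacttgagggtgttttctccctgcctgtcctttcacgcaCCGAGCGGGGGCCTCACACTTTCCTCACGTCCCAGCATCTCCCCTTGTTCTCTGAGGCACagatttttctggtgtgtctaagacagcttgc
TBCA intron 1, chr5:77741753-77741841, minus strand: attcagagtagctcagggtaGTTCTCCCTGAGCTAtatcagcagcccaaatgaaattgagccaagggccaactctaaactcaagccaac
TBCE intron 5, chr1:235425100-235425195, plus strand: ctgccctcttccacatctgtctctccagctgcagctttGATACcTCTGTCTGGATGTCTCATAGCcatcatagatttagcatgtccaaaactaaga

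TBCD carried more MATR3 reads than the other 4 cofactors in every library. TBCD lies on chr17:82752042-82945914, plus strand, and is 193.9 kb long with 39 exons and 38 introns. It held 226, 238 and 227 clusters with 3839, 3677 and 3785 reads in replicates 1, 2 and 3. Scaled to 1000000 reads in gene-annotated clusters (normalised reads), this gave 2651, 2769 and 2785, a mean of 2735 ± 73.4 (SD, n = 3). The 3 libraries lay close together. Among the 8155 protein-coding genes with a cluster in each replicate, TBCD ranked 3 by normalised reads and 2 by number of clusters. Ranks are those of the geometric mean over the 3 libraries. By normalised reads per kb of gene its level was 13.7, 14.3 and 14.4, or 14.1 ± 0.38 (SD, n = 3). Its rank per kb was 180 by the geometric mean, and 231, 223 and 287 in replicates 1, 2 and 3. The median of those genes was 1.55 normalised reads per kb, so TBCD stood 9.09-fold above it.

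TBCA, the beta tubulin cofactor, lies on chr5:77691166-77868780, minus strand. It held 40, 32 and 33 clusters with 501, 306 and 338 reads, or 346, 230 and 249 normalised reads. Replicate 1 was the highest. The level per kb of gene was 1.55 ± 0.35 (SD, n = 3), and its geometric mean ranked 3972 of 8155. All of its clusters lay inside the MANE Select transcript, which spans 85174 nt of the 177615 nt gene, and over that length the level was 3.23 ± 0.73 normalised reads per kb (SD, n = 3).

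TBCE, which binds alpha tubulin, lies on chr1:235367360-235452443, plus strand, and is 85.1 kb long. It held 12, 8 and 9 clusters with 217, 81 and 86 reads, or 149.8, 61.0 and 63.3 normalised reads. Replicate 1 was the highest, and 108 of its reads lay in a single cluster at chr1:235424927-235425099 in intron 5, which had no overlapping cluster in the other 2 replicates. The level per kb was 1.07 ± 0.60 (SD, n = 3), and its geometric mean ranked 4928 of 8155. Without replicate 1 the normalised reads averaged 62.1.

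TBCB, which binds alpha tubulin, and TBCC, which completes the complex, were near the limit of the tables. TBCB (chr19:36114289-36125947, plus strand, 11.7 kb) held 1 cluster of 9 reads in replicate 1 at chr19:36120018-36120069, 1 of 7 reads in replicate 2 at chr19:36117207-36117240, and none in replicate 3. Both lay in intron 2 and did not overlap. TBCC (chr6:42744498-42746103, minus strand), a gene of 1606 nt with a single exon, held 1 cluster of 6 reads in replicate 3 at chr6:42744963-42744992, in the 3′ UTR, and none in replicates 1 and 2. These values are of single clusters from tables that list none under 4 reads, so a library without a cluster may still have held reads.

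**Figure D1:**
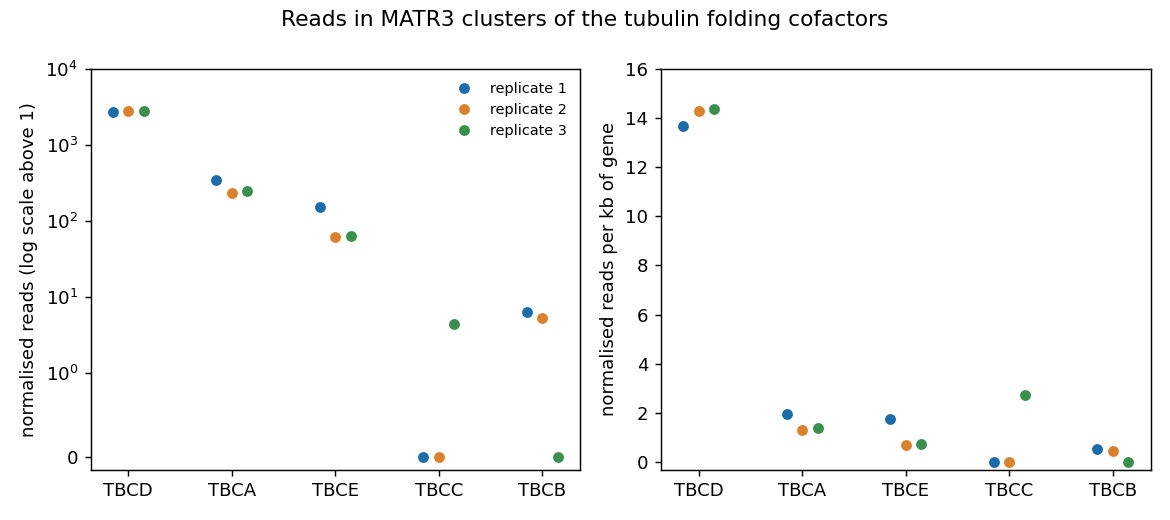
Normalised reads (left, log scale above 1) and normalised reads per kb of gene (right) of the 5 cofactors, 1 point per replicate. TBCD lies at 2651 to 2785 normalised reads and at 13.7 to 14.4 per kb, above every point of the other 4 genes.

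Per kb of gene, the order of the means was TBCD, TBCA, TBCE, TBCC and TBCB. No library of another cofactor reached the TBCD range in this plot of levels. The ranges of neighbours below TBCD overlapped. TBCA lay at 1.30 to 1.95, TBCE at 0.717 to 1.76, TBCC at 0 to 2.75 and TBCB at 0 to 0.533 normalised reads per kb. Within each library, TBCA was above TBCE, at 1.95, 1.30 and 1.40 against 1.76, 0.717 and 0.744. TBCE was above TBCC in replicates 1 and 2 only, and TBCC above TBCB in replicate 3 only. Per kb of the MANE Select transcript, TBCA at 2.71 to 4.06 did not overlap TBCE at 0.717 to 1.76. Of the 5 cofactors, 3 had a cluster in each replicate, beside 40.7% of the 20020 protein-coding genes. The background is given only to read that count against, because TBCD was selected on its reads.

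The clusters lay in introns. Intron clusters held 96.2%, 95.8% and 97.2% of TBCD reads in replicates 1, 2 and 3, and all clusters of TBCA, TBCB and TBCE were intronic. Most clusters in the tables lay in introns too. In replicate 1, intron clusters outside TBCD numbered 50183 under 10 reads, 41525 at 10 to 29 and 4571 at 30 or more, of 133088 clusters. Their share of reads was not computed, so the location is not read as particular to the cofactors. The TBCD clusters that touched coding sequence had at most 59 reads, in a cluster over the start of exon 35 in replicate 2 (chr17:82937162-82937293). Only 1 TBCD cluster was annotated to the 3′ UTR, with 5 reads in replicate 2. Clusters at chr17:82937817-82937967 that the deposited tables class as coding or partly coding fall inside intron 35 of the MANE Select transcript.

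TBCD sites seldom recurred at the same bases in all 3 libraries. Its clusters merged into 578 sites, of which 478 were seen in 1 replicate, 94 in 2 and 6 (1.04%) in 3. Over the 249466 sites in the tables with an intron cluster, 1.2% held clusters of all 3 replicates, so the TBCD share was near the background under this rule. The count of TBCD sites in all 3 moved with the rule: it was 1 of 647 when overlap of at least 50% of both clusters was required, 0 of 423 in clusters at or over the median read count, 2 of 375 when 3 conversion locations were required, and 25 of 425 when clusters within 50 nt were joined. Sites in 2 replicates made up 16.3% for TBCD, and over all intron sites they numbered 24948 of 249466. Of the 97 sites of TBCA, 8 were seen in 2 replicates and none in 3. Of the 25 sites of TBCE, 3 were seen in 2 replicates and none in 3, and all 3 lay in intron 5.

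Each of the 6 recurrent TBCD sites had a library near the minimum of 4 reads. That library held 5 to 8 reads, from 2 or 3 distinct reads. The intron 14 site, the first sequence shown, held 18, 23 and 8 reads, the highest minimum of the 6 after normalisation, at 12.4, 17.3 and 5.89 normalised reads, and 29 nt were covered in all 3 libraries. The intron 8 site at chr17:82799463-82799579 held 12, 7 and 24 reads with 10 nt in common, within an AT-rich stretch of 33.3% G or C. The intron 35 site held 21, 10 and 7 reads. No base of it was covered in all 3 libraries, so it counts only through chaining.

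The other 3 differed more between libraries. The intron 3 site held 40, 6 and 41 reads, low in replicate 2, with 29 nt in common. The intron 7 site held 38, 6 and 12 reads, high in replicate 1, with 14 nt in common. The intron 17 site held 5, 5 and 13 reads, and only 3 nt were common to the libraries. None of the 6 sequences contained ATCTT. The motif was rare in the other TBCD sites too, at 6.38% of the 94 in 2 replicates and 4.81% of the 478 in 1. Its absence from 6 sites thus does not set them apart.

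Of the 20 TBCD sites with the most reads, only the intron 3 site had clusters in all 3 libraries, and the 4 heavy sites given here each lacked a cluster in 1. The site in intron 8 at chr17:82800134-82800317 held 99 reads in replicate 1, none in replicate 2 and 102 in replicate 3, and 160 nt were covered in both. The intron 33 site at chr17:82932000-82932159 held 77, 31 and 0 reads. In intron 22, chr17:82909815-82910276 held 78, 104 and 0 reads. In intron 14, chr17:82879876-82880263 held 26, 181 and 0 reads, and its replicate 2 cluster was the largest of TBCD. A library with no cluster at these sites can have held up to the reads that the tables' minimums removed.

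**Figure D2:**
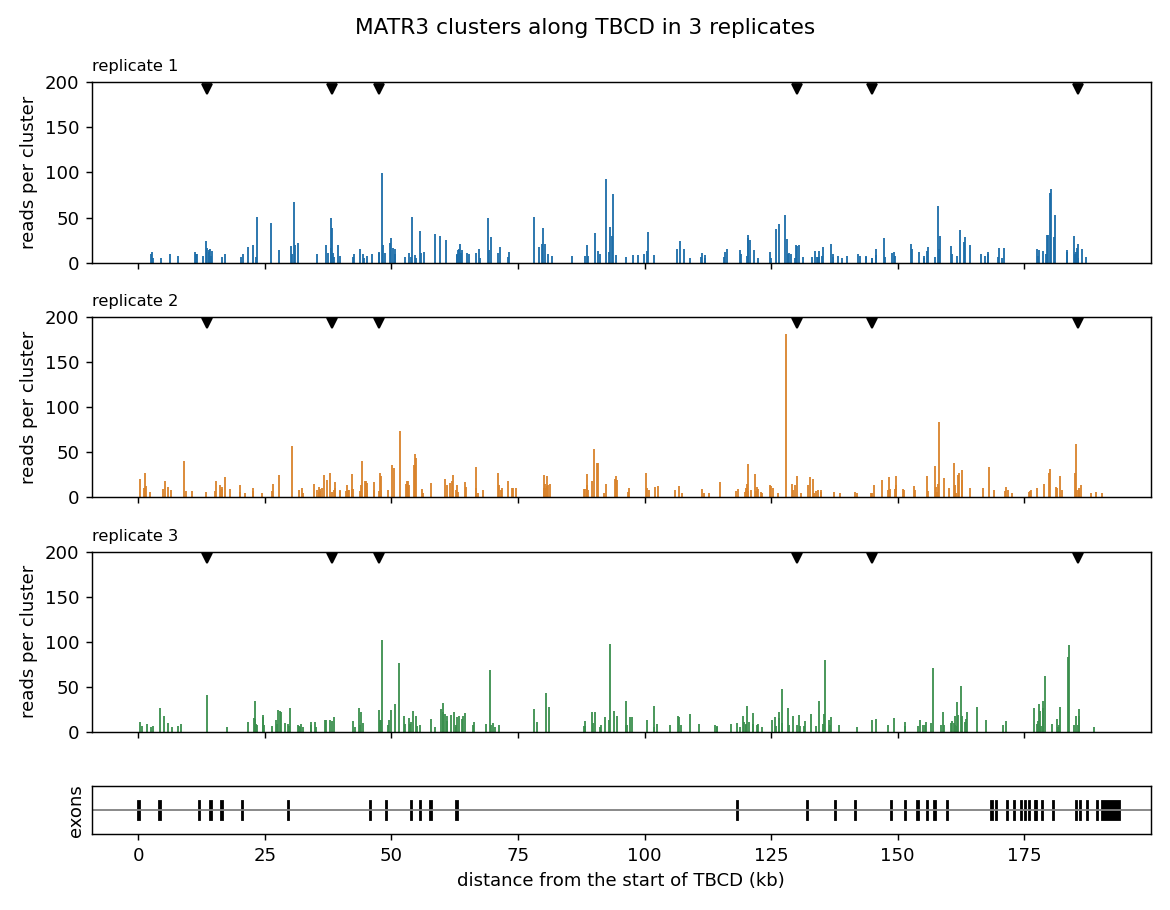
Reads per MATR3 cluster (vertical axis) against distance from the start of TBCD in kb (horizontal axis), 1 panel per replicate, with the exons of the MANE Select transcript as black boxes and triangles over the 6 sites with clusters of all 3 replicates. Clusters spread over the gene in each library, and the tallest line, of 181 reads, has no counterpart of that height in replicates 1 and 3.

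The gene was also divided into windows of 1000 nt, which hold more clusters than a site does, so their shared share cannot be set against that of sites. Of 194 consecutive windows of 1000 nt from the gene start, 68 (35.1%) had a cluster centred in them in each replicate, 61 in 2, 44 in 1 and 21 in none. The libraries held 226, 238 and 227 TBCD clusters over these 194 windows. No such share was computed for other genes, so the counts have no background and are not read as recurrence. The windows were chosen after the tables were seen. The window with the highest minimum, chr17:82937042-82938041, spans the end of intron 34, exon 35 and nearly all of intron 35, and held 64, 112 and 67 reads. In intron 14, chr17:82872042-82873041 held 90, 69 and 48 reads. In intron 34, chr17:82933042-82934041 held 53, 45 and 54 reads, the closest agreement of the 8 leading windows. In intron 10, chr17:82806042-82807041 held 64, 128 and 46 reads, most in replicate 2.

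The introns of TBCD differed in density. Of the 38 introns, 24 had a cluster in each replicate, 7 in 2, 2 in 1 and 5 in none, and those 5 measured 90 to 1342 nt. Intron 13, the longest at 55289 nt, held the most reads, 1007, 786 and 818, which were 23.1% ± 2.74 of the gene's reads (SD, n = 3). Its density was 12.6, 10.7 and 10.9 normalised reads per kb, below that of the whole gene in each library. Intron 13 also had 26 of the 94 sites seen in 2 replicates, but none of those seen in 3.

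Shorter introns had the highest densities. Intron 33 (2014 nt) had 83.3, 27.3 and 47.9 normalised reads per kb, a mean of 52.8 ± 28.3 (SD, n = 3), with replicate 1 far above replicate 2. Intron 10 (1596 nt) had 42.8, 60.4 and 24.4. Intron 35 (688 nt) had 42.2, 28.5 and 52.4. In all libraries these 3 introns lay above the density of intron 13, while their own ranges overlapped one another.

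Neighbouring introns could be empty. Introns 27, 28, 29, 31 and 38 held no cluster centre in any library. Beside them, intron 26 held reads in 1 library, intron 30 in 2, and intron 32 held 36, 0 and 81 reads. Intron 14 (13764 nt) differed little between libraries, at 20.4, 24.6 and 20.6 normalised reads per kb. Across the 38 introns, which share the 3 libraries, Spearman's rho of normalised reads per kb was 0.62 between replicates 1 and 2, 0.76 between 1 and 3, and 0.51 between 2 and 3. Longer introns held more reads, with rho of 0.76, 0.80 and 0.71 in the 3 libraries. These correlations are descriptions across introns, which are not replicates.

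**Figure D3:**
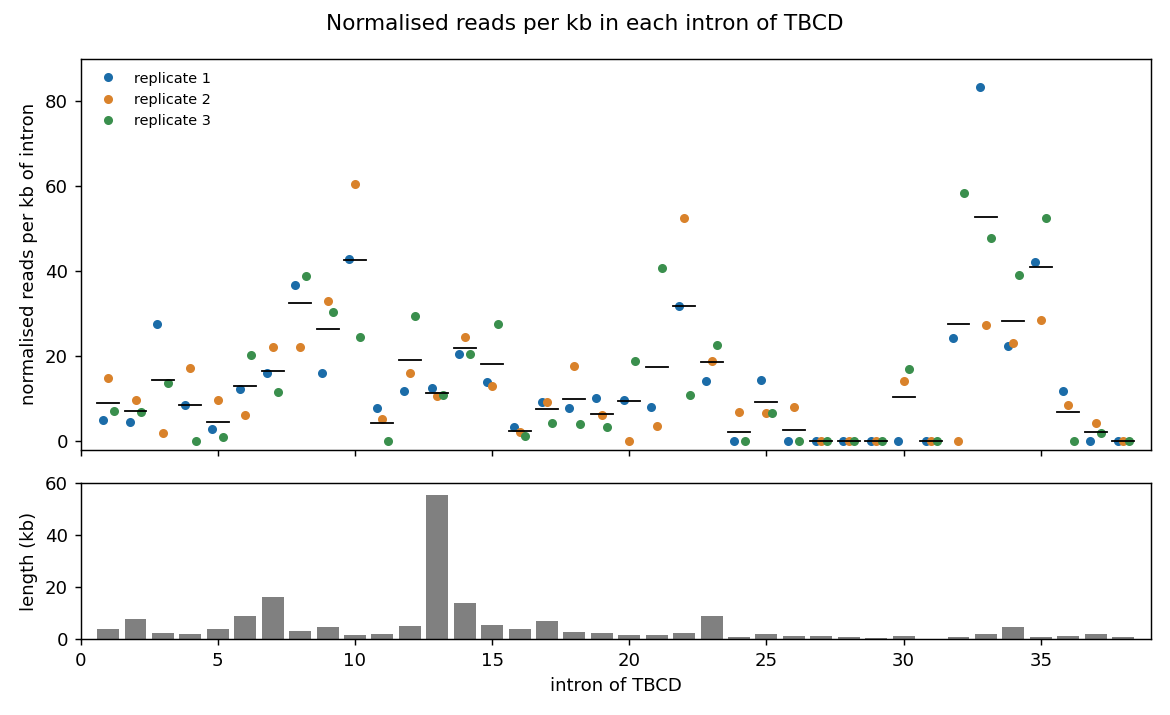
Normalised reads per kb of each TBCD intron (top, points are replicates, bars are means) and intron length in kb (bottom). Introns 10, 33 and 35 have means of 42.6, 52.8 and 41.0 normalised reads per kb, and intron 13, of 55289 nt, has 11.4.

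TBCD intron clusters lay near exon ends about as often as the length there. Within 500 nt of an exon lay 17.7% ± 1.33 of them (SD, n = 3), beside 19.2% of the intron length. The median distance to the nearest exon was 1921 nt ± 111 (SD, n = 3). Clusters covered 6.99%, 7.85% and 6.64% of the gene in replicates 1, 2 and 3, against 0.893% ± 0.20 of TBCA and 0.53% ± 0.19 of TBCE (SD, n = 3).

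In TBCA, intron 1 (67857 nt) held 429, 256 and 272 reads, 83.3% ± 2.60 of the gene's reads (SD, n = 3), intron 2 (14889 nt) held the rest and intron 3 (1767 nt) held none. Per kb, introns 1 and 2 did not differ beyond their spread, at 3.39 ± 0.85 and 3.04 ± 0.45 normalised reads per kb (SD, n = 3). The TBCA site shown, in intron 1, held 14, 14 and 0 reads. The TBCA site with the most reads, chr5:77733637-77733734 in intron 1, held 35, 0 and 0 reads. In TBCE, all clusters of intron 5 (7578 nt) lay within 3077 nt at chr1:235423234-235426310, with 182, 56 and 34 reads, which were 83.9%, 69.1% and 39.5% of the gene's reads. Replicate 1 was the highest there too. Intron 2 of TBCE (21353 nt) held 14, 9 and 32 reads, so in replicate 3 the pair of introns was nearly level. The TBCE site shown held 25, 0 and 5 reads.

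TBCD intron clusters were compared with all other intron clusters of the same library. The share found in another replicate, meaning sharing 1 nt or more with a cluster of the same strand there, was 29.8%, 29.7% and 30.6% for TBCD and 21.2%, 21.0% and 22.4% for the others. The difference was 8.52 percentage points ± 0.26 (SD, n = 3), higher for TBCD in 3 of 3 libraries, and is a description, since TBCD was selected on its reads. After the clusters were moved by 1000 nt up and down the chromosome, the share was still 26.0% ± 2.25 for TBCD and fell to 10.8% ± 0.38 for the others (SD, n = 3). The share was thus 1.16-fold its moved value in TBCD and 1.99-fold in the others, and the difference in found minus moved between TBCD and the others was -6.02, -4.91 and -9.04 percentage points, lower for TBCD in 3 of 3 libraries. When both clusters had to overlap by at least 50%, the difference was 0.91 percentage points ± 1.19 (SD, n = 3). The share found in both other replicates was 2.41% ± 0.30 for TBCD and 2.49% ± 0.06 for the others (SD, n = 3), a difference of -0.08 ± 0.36 that was below its spread.

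TBCD clusters were larger than the others, and size moved with recurrence. Their median length was 46.8 nt ± 1.04 against 38.7 ± 1.53, and their median read count 11.3 ± 1.15 against 8.67 ± 0.58 (SD, n = 3). Among clusters under 10 reads, 20.2% ± 3.10 of TBCD and 14.3% ± 1.18 of other intron clusters were found in another replicate. At 10 to 29 reads the shares were 34.3% ± 1.04 and 28.4% ± 1.11. At 30 or more reads they were 44.7% ± 5.70 and 50.9% ± 9.15, which overlapped (SD, n = 3 throughout). Within each library TBCD was nevertheless lower there, at 48.3%, 47.6% and 38.1% against 50.1%, 60.5% and 42.2%. It had only 29, 21 and 21 clusters of that size. Under 30 reads TBCD was higher than the others in each class and library. The part of length and reads in the difference was not tested further.

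T-to-C conversion per T position was slightly higher in TBCD. It was 11.7%, 11.9% and 12.1% in TBCD intron clusters and 10.5%, 11.1% and 11.2% in the others. The difference was 0.96 percentage points ± 0.21 (SD, n = 3), positive in 3 of 3 libraries, and an exact two-sided sign-flip test gave p = 0.25, the smallest that 3 replicates allow. The share of reads with a T-to-C change went the other way, at 82.3% ± 0.38 in TBCD and 87.5% ± 0.62 in the others (SD, n = 3).

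Fewer TBCD clusters contained ATCTT, searched on the transcript strand only. The motif occurred in 4.59%, 3.93% and 4.57% of TBCD intron clusters and in 10.1%, 9.41% and 9.58% of the others. The difference was -5.34 percentage points ± 0.28 (SD, n = 3), lower for TBCD in 3 of 3 libraries, with p = 0.25 in the exact two-sided sign-flip test. Base composition moved with it: TBCD clusters were 56.4% ± 0.72 G or C and 26.7% ± 0.71 T, and the others 47.2% ± 0.72 and 31.9% ± 0.88 (SD, n = 3). Pyrimidines (C or T) made up 54.1%, 53.4% and 54.5% of TBCD clusters and 58.0%, 56.5% and 58.0% of the others, lower in each library. In whole TBCD introns they made up 52.6%. ATTTC, another order of the same bases, was also rarer in TBCD, with a difference of -3.02 percentage points ± 0.75 (SD, n = 3). The part of composition in either difference was not tested. Within TBCD, ATCTT occurred 0.849, 0.685 and 0.80 times per 1000 nt of intron cluster and 0.846 times per 1000 nt of whole intron, where G or C made up 52.8%.

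**Figure D4:**
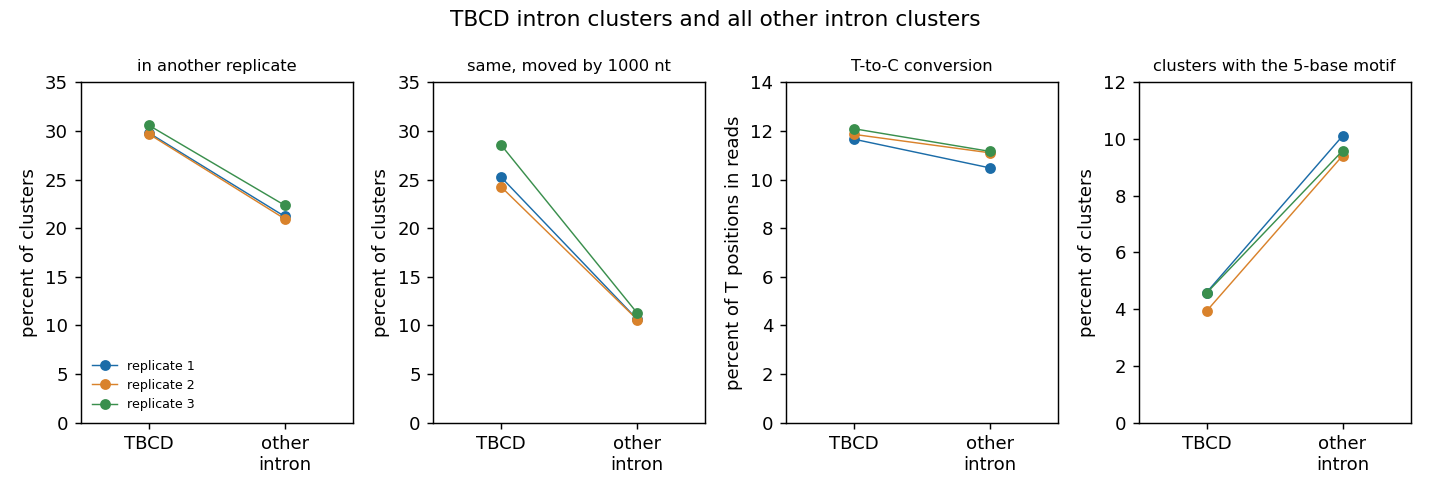
TBCD intron clusters beside all other intron clusters, 1 line per replicate, in percent: clusters found in another replicate, the same share after moving clusters by 1000 nt, T-to-C conversion per T, and clusters with ATCTT. The first 3 panels are higher and the last is lower for TBCD in every replicate, and moving the clusters lowers the share more in the other clusters (10.8%) than in TBCD (26.0%).

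Repeated sequence was present in part of the TBCD clusters. Of the 689 TBCD clusters with distinct positions, 114 held at least 1 stretch of 20 nt that occurs again on chromosome 17 on either strand, and 2 consisted only of such stretches. At the intron 3 site shown, 17 of 153 stretches of 20 nt recurred, up to 18 times. Only stretches inside a single cluster were searched for, and only on chromosome 17. Of 67, 96, 125 and 42 such stretches, the intron 14, 35, 7 and 17 sites shown held none that recurred. The intron 8 site at chr17:82799463-82799579 held 1 of 91. Their part in the read counts was not tested.

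The clusters followed the strand of the genes. Inside TBCD all 691 clusters on the plus strand were named TBCD, and the minus strand held 1 cluster, of 9 reads in replicate 2 at chr17:82945365-82945396, named for the overlapping gene B3GNTL1. ZNF750, which lies on the minus strand inside TBCD (chr17:82829434-82840022), held none. FN3K, the nearest gene upstream on the plus strand, held 36.6 ± 14.9 normalised reads (SD, n = 3), or 2.35 per kb, beside 14.1 per kb in TBCD.

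The genes closest to TBCD in level were named by the distance between log2 normalised reads over the 3 libraries, among 8903 genes with clusters in each. They were the long non-coding RNA gene PVT1 (distance 0.24), GRB10, an adaptor of growth factor receptors (0.65), ANKRD11, a chromatin regulator (0.83), SND1, which encodes a nuclease-domain protein (1.13), and THSD4, which encodes an extracellular matrix protein (1.19). Per kb of gene, TBCD at 14.1 lay below ANKRD11 at 16.6 ± 2.82, a difference within the spread of ANKRD11, and above GRB10 at 10.5 ± 0.79, PVT1 at 7.24 ± 0.97, SND1 at 4.04 ± 0.52 and THSD4 at 2.49 ± 0.16 normalised reads per kb (SD, n = 3). Sites in all 3 replicates made up 1.04% of TBCD sites, 1.34% in SND1, 2.45% in PVT1, 2.84% in THSD4, 2.88% in GRB10 and 3.31% in ANKRD11. TBCD thus had the lowest such share of the 6, with 6 sites against 8 to 20.

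The other tubulin genes and folding machinery were taken as a list of 36 genes. Of these, 20 (55.6%) had a cluster in each replicate, 9 in 2, 2 in 1 and 5 in none, beside 40.7% of protein-coding genes with a cluster in each. The median of those 20 was 57.1 normalised reads and 3.14 normalised reads per kb, and the medians over the 8155 genes were 64.0 and 1.55. Their median length was 19784 nt against 45402 nt.

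None of the 5 alpha tubulin genes, 3 of 7 beta tubulin genes and 2 of 4 gamma, delta and epsilon tubulin genes had a cluster in each replicate. TUBA1A, TUBA4A, TUBB2A, TUBG1 and TUBG2 had none. TUBB, a main beta tubulin gene, held 24, 103 and 127 reads, low in replicate 1. TUBA1B held 0, 37 and 172 reads. Tubulin genes are near-identical in coding sequence and have many copies, so reads can have been split between them, which was not tested.

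Of the chaperones, 6 of 8 chaperonin subunits and 5 of 6 prefoldin subunits had a cluster in each replicate. CCT7, a chaperonin subunit, held 283, 267 and 452 reads, or 12.4 ± 3.96 normalised reads per kb (SD, n = 3), and its range included the TBCD level. PFDN5, a prefoldin subunit of 4162 nt, held 110, 84 and 106 reads, or 17.4 ± 1.92 normalised reads per kb (SD, n = 3), above TBCD in each library. VBP1, another prefoldin subunit, had the most normalised reads of the list at 280.1 ± 148.2 (SD, n = 3), about the level of TBCA, from 369, 194 and 597 reads.

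ARL2, the GTPase that works with TBCD, held a single cluster, of 6 reads in replicate 2. Its regulator ELMOD2 held 55, 42 and 35 reads, or 1.07 ± 0.21 normalised reads per kb (SD, n = 3). The relatives of the cofactors TBCEL and TBCCD1 held 1.31 ± 0.59 and 2.06 ± 0.11 normalised reads per kb (SD, n = 3). RP2, which resembles TBCC, held 14, 0 and 6 reads. TTC5, which acts in the autoregulation of tubulin mRNA, held 91, 91 and 97 reads, or 1.37 ± 0.09 normalised reads per kb (SD, n = 3). Apart from PFDN5, no gene of the list with a cluster in each replicate had a mean per kb above that of TBCD. TUBA1B, with no cluster in replicate 1, had a mean of 14.2 ± 18.4 normalised reads per kb (SD, n = 3), beside 14.1 in TBCD.

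**Figure D5:**
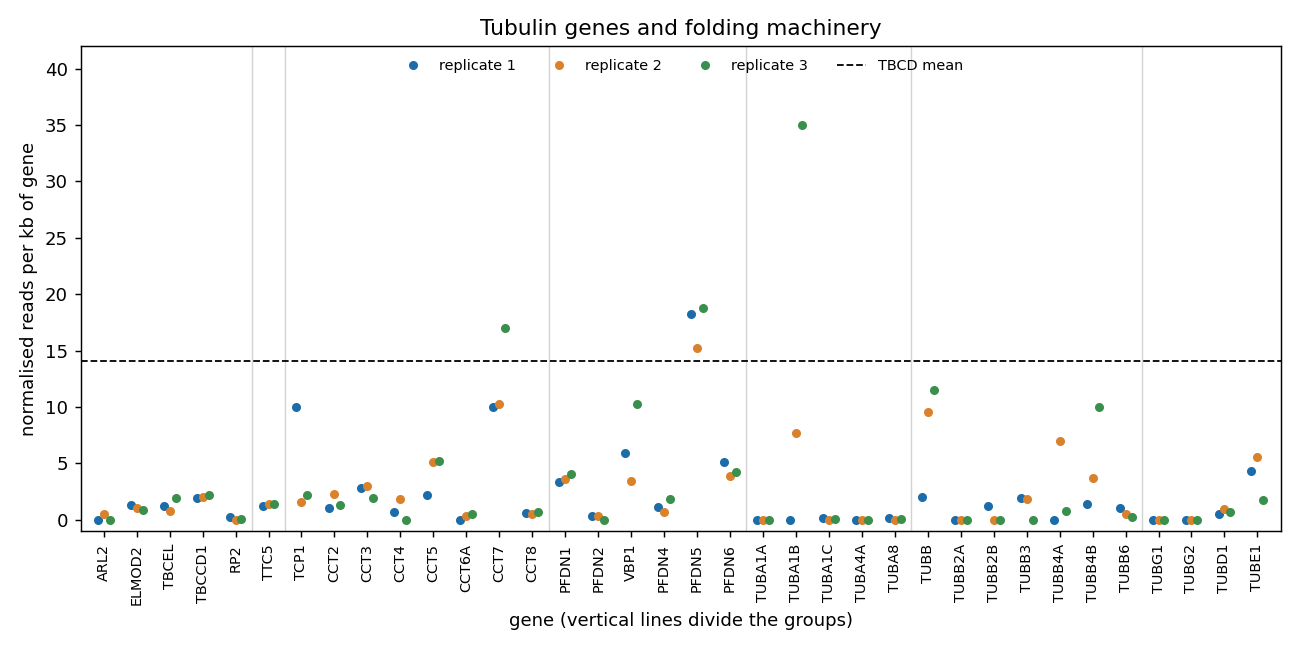
Normalised reads per kb of gene for the 36 tubulin genes and folding machinery genes, 1 point per replicate, with the TBCD mean of 14.1 as a dashed line. PFDN5 lies above the line in each replicate, and CCT7 and TUBA1B lie above it in replicate 3 alone.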

How the data were processed

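MATR3 PAR-CLIP libraries from HEK293 cells (3 replicates, 1 group) were analysed from cluster tables that the authors deposited, 1 per replicate. Per the file headers, read, distinct read and conversion columns are whole counts, not normalised, and the share of T-to-C reads is a deposited fraction from 0 to 1, printed here as a percent. Per the submitters' processing notes the build is hg38, and the sequences of 828 of 828 clusters of the 5 genes equalled hg38 at their coordinates. The aligner, cluster caller and annotation release are not given in the sources used here. Of 13557 gene names in the tables, 89.6% matched GENCODE release 44 or older symbols, so counts of genes with clusters are lower limits.

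Reads were summed by deposited gene name and scaled to 1000000 reads in gene-annotated clusters. Clusters overlapping by at least 1 nt on 1 strand were chained into sites. Conversion was conversion events over all T events. The test of a difference was an exact sign-flip test, two-sided, over the 3 replicates. Its smallest p is 0.25, so no result could pass the usual threshold, with or without adjustment over the 14 measures compared. Where the labels do not state separate cultures, such p-values measure only the spread between these samples. Reads carry no molecular identifiers, and copies of 1 molecule can be counted more than once.

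The members and gene lists were chosen with earlier results of these data known. Genes named were the 5 cofactors, the list of 36 tubulin and folding genes, the 5 genes nearest TBCD in level, genes overlapping a member, and FN3K and ACTB, chosen after their values were seen. Sites named were those in all 3 replicates and, for genes with none, the one with most reads; the TBCA and TBCE sites shown by sequence (the ones in 2 replicates with the highest lower value), heavier TBCD sites, windows of 1000 nt and the TBCE stretch were chosen after values were seen. Functions were tested on simulated data. Python 3.11.15, numpy 2.4.6 and pandas 2.3.3 were used. Alternatives covered denominators, distinct reads, overlap, cluster minimums, motif order and leaving out each replicate.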

Additional observations from a re-analysis of the deposited data

Results flagged for a closer look

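Reads on the strand opposite to the cofactors were not used in the comparisons and stood above 0. Inside TBCD there were 9 such reads, in 1 cluster of replicate 2 with 3 distinct reads, named for B3GNTL1. Inside TBCA there were 41 such reads, 12, 7 and 22 in the 3 replicates, all at ACTBP2 (chr5:77784881-77786003, plus strand), a processed pseudogene related to the actin gene ACTB, which lies upstream of the MANE Select transcript of TBCA. ACTB itself held 66, 257 and 206 reads, and reads of such copies can be split between them by alignment, which was not tested.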

How the results depend on the processing

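Of 74 alternative values for 11 results, 47 were counted as unchanged. These kept any direction they had and stayed within the spread between replicates or, for counts, within 1.5 times. That spread was wide for TBCC, at 1.47 ± 2.55 normalised reads (SD, n = 3). Its fall to 0 with at least 3 conversion locations, and without replicate 3, is among the 47. TBCD normalised reads were 2413 per 1000000 reads in all clusters, 2845 from distinct reads and 3308 from clusters with at least 3 conversion locations. TBCA per kb was 3.23 over the MANE Select transcript.

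The number of TBCD sites in all replicates depended on the joining rule. It was 1 with 50% overlap of both clusters, 25 when clusters within 50 nt were joined, 0 in clusters at or over the median read count and 2 when 3 conversion locations were required. Joining within 200 or 500 nt, chosen after seeing the data, gave 48 and 44. Leaving out each replicate left 36 to 38 sites in both of the others, since fewer libraries had to hold a site.

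The difference in clusters found in another replicate was 0.91 percentage points with 50% overlap, 6.57 in clusters at or over the median read count, 8.06 when 3 conversion locations were required, 4.52 when 3 distinct reads were, and 4.20 to 4.24 without each replicate. After subtraction of the share found on moving clusters by 1000 nt, chosen after seeing the data, it turned to -6.66. The difference in conversion turned to -5.13 when reads carrying a T-to-C change were counted in place of positions, and was 1.33 in clusters at or over the median read count and 1.55 when 3 distinct reads were required. The difference in ATCTT was -1.41 per 1000 nt of cluster, -3.02 for ATTTC and -6.42 in clusters at or over the median read count. The count of 20 list genes ranged from 16 to 23. Without a replicate, a cluster had a single other library to be found in. The value per 1000 nt is in another unit, and that for ATTTC is of another motif. The cause of the other shifts was not tested. No paired analysis was possible because replicate numbers link no samples across groups here, with all 3 libraries in 1 group; TBCD and other clusters were compared within each library. TBCB and TBCC had at most 1 cluster in a library, and what limits them was not tested.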
